A study of Mus musculus with 32 samples.

Results

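The mitochondrial citrate cycle was followed here through 9 of its genes, Cs, Idh3a, Idh3b, Idh2, Ogdh, Sucla2, Suclg2, Fh1 and Mdh2. They were chosen by name, with earlier results of these data known, and are 9 of the 41388 genes counted. Each of the 9 symbols matched 1 gene identifier, and all 9 genes were tested in every comparison. RNA was sequenced from primary sternal chondrocytes of C57BL/6 pups in 32 libraries, 2 for each of 16 conditions. Wild-type cells were left untreated or given IL-1β (10 ng/mL), FX11 (40 µM, an inhibitor of lactate dehydrogenase A) or both for 24 h. Cells of LDHA flox (Ldha f/f), NAMPT flox (Nampt f/f) and NFKBIZ flox (Nfkbiz f/f) mice, called the Ldha, Nampt and Nfkbiz lines below, were infected in culture for 24 h with adenovirus carrying eGFP alone (GFP) or Cre with eGFP (Cre) and then kept for a further 24 h with or without IL-1β. Every flox library therefore had adenovirus, and no wild-type library had any. Cre came from the virus in whichever cells took it up. No cells without a floxed gene were given Cre virus, so that an action of Cre virus common to the lines and the loss of a gene cannot be told apart within a line. Cultures were not passaged. The labels do not say whether the 2 libraries of a condition came from separate animals or cultures, so p-values measure only the spread between these libraries.

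The citrate cycle burns the acetyl group of acetyl-CoA in the mitochondrial matrix and hands the electrons on to NADH and FADH2 for respiration. Citrate synthase (Cs) starts it by joining acetyl-CoA to oxaloacetate, the isocitrate dehydrogenases and the 2-oxoglutarate dehydrogenase complex each release carbon dioxide, succinyl-CoA synthetase makes a nucleoside triphosphate, and fumarase (Fh1) and malate dehydrogenase (Mdh2) bring the carbon back to oxaloacetate. Cartilage has no blood vessels and its cells live with little oxygen and draw most of their energy from glycolysis, in which lactate dehydrogenase A (Ldha) turns pyruvate into lactate instead of letting it enter the mitochondrion. IL-1β is an inflammatory cytokine that switches chondrocytes towards matrix breakdown. Nampt makes a precursor of NAD, the cofactor that both lactate dehydrogenase and the cycle reduce or oxidise. Nfkbiz encodes a nuclear cofactor of NF-κB.

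The libraries held 15830658 to 39959888 counts (median 25363482), and the 9 genes had between 301 and 9590 counts in a library. The chondrocyte markers Col2a1 and Acan were present in every library, at 10887 to 67634 and 769 to 15442 CPM. CPM here are counts scaled to the total of the library multiplied by its TMM factor (trimmed mean of M-values). The deleted genes followed their labels. Ldha fell from 936.7 and 875.6 CPM with GFP to 119.8 and 110.8 with Cre, Nampt from 60.1 and 54.7 to 6.8 in both libraries, and under IL-1β Nfkbiz from 232.5 and 227.6 to 29.0 and 31.9. The titles number the libraries in 2 styles, which are called library sets here (12 and 20 libraries). In the wild-type, Ldha and Nampt cells each condition had 1 library in each set, whereas all Nfkbiz libraries were in set 2. Among the wild-type libraries of set 2, the library labelled IL-1β had Mmp3, a matrix-degrading protease gene that IL-1β induces, at 0.8 CPM. The library labelled FX11 had it at 2033 CPM. These 2 libraries go against their labels, each having Mmp3 as the label of the other would give, and were left under them.

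Compared per length of transcript, as RPKM (CPM per kilobase), Mdh2 was the most abundant of the 9 transcripts, with a median of 94.5 and a range of 81.2 to 125 over the 32 libraries. Cs followed at 68.5 (57.7 to 90.0). Ogdh at 28.4 (21.7 to 32.8), Idh2 at 27.8 (15.4 to 38.9) and Idh3b at 23.6 (19.8 to 26.3) had overlapping ranges. They were followed by Idh3a at 16.2, Suclg2 at 13.2, Fh1 at 11.1 and Sucla2 at 7.00, and each of these ranges overlapped that of the next in order. Idh2 ranged most widely over the 16 conditions, with a 2.03-fold ratio between its highest and lowest condition means, and Idh3b least, with 1.23-fold. Between the 2 libraries of a condition, median coefficients of variation were 2.39% for Idh2 and 2.71% for Cs and up to 8.42% for Suclg2. Wild-type pairs lay further apart for Idh2, at 41.5 and 79.8 CPM in the libraries labelled IL-1β and at 40.0 and 61.1 in those with both agents.

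**Figure D1:**
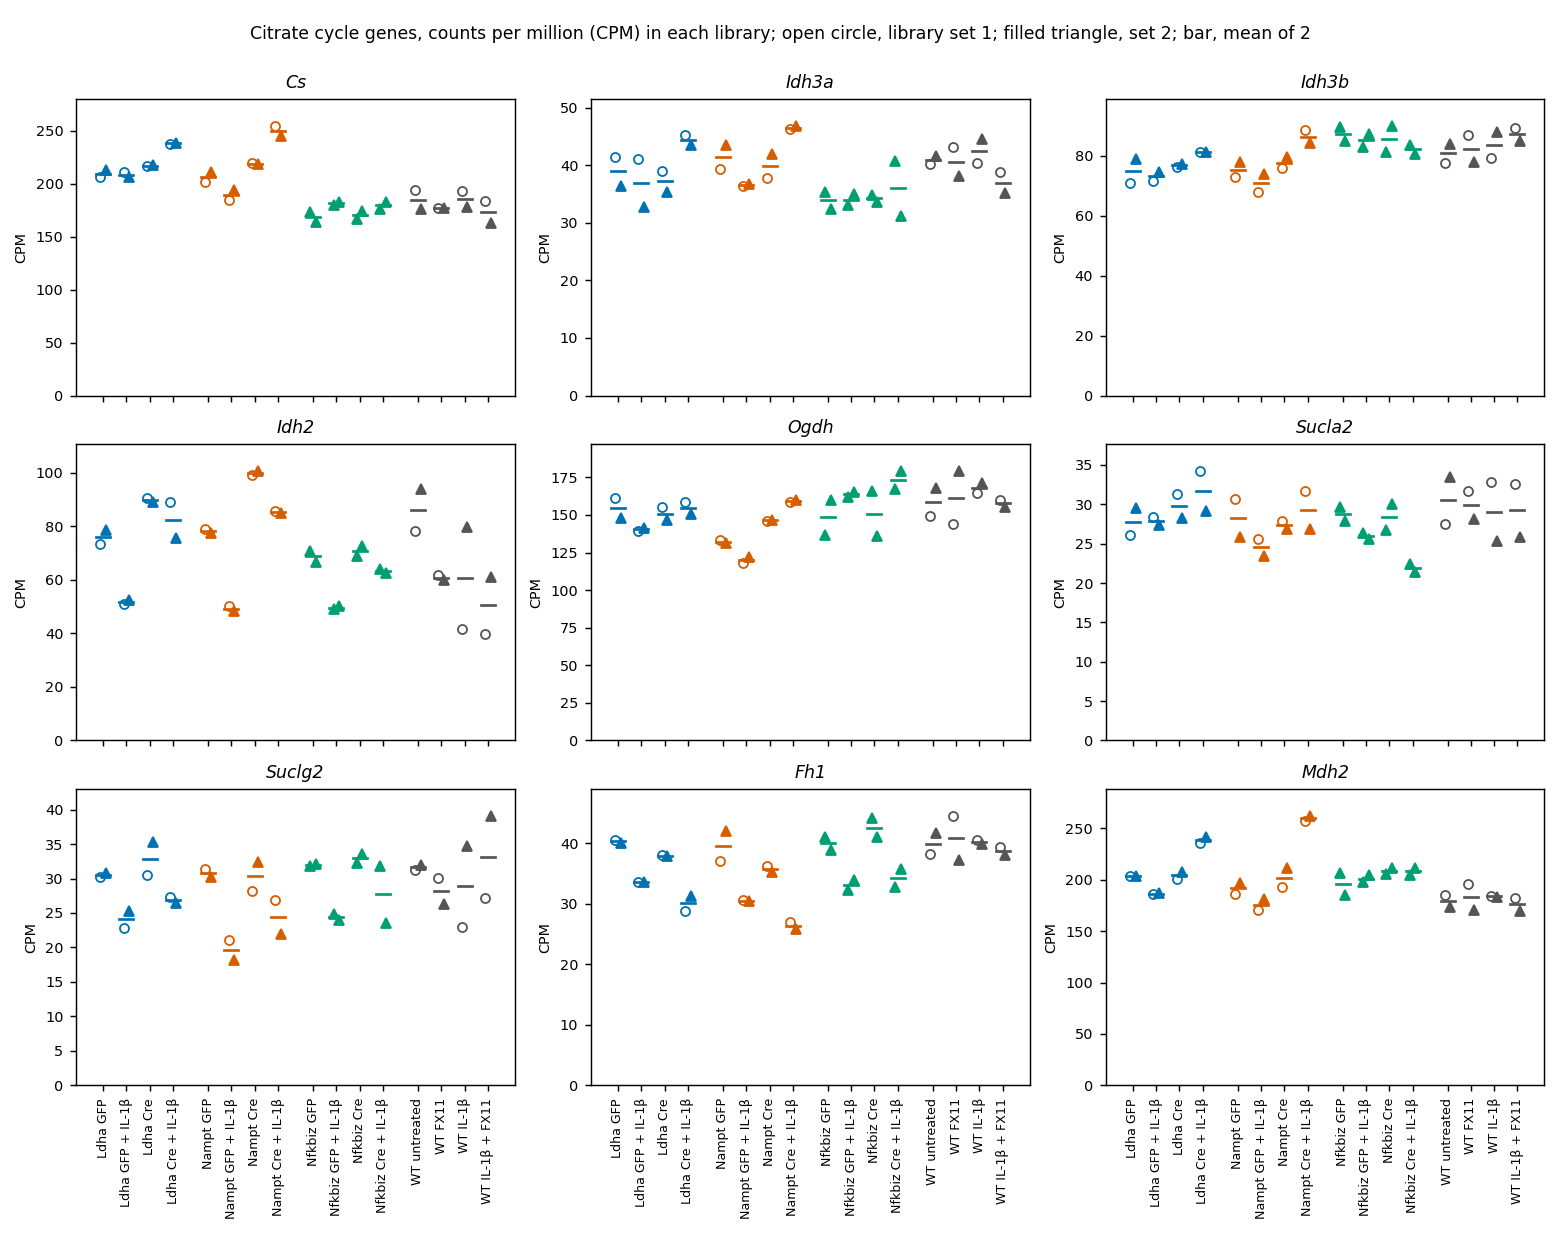
CPM of each of the 9 genes in each of the 32 libraries, by line and treatment, with the y axis from 0. The Idh2 panel shows the step down with IL-1β after GFP virus to between 48.4 and 52.4 CPM in all 3 lines, and the Mdh2 panel the rise with Cre and IL-1β in the Ldha and Nampt lines, to 235 CPM and above.

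With GFP virus, IL-1β lowered Idh2, Suclg2 and Fh1 and left no other of the 9 genes past the test. Averaged over the 3 lines, 3 of 9 genes were lower and none higher at an adjusted p of 0.05 or less (edgeR's quasi-likelihood test with Benjamini-Hochberg adjustment over 15145 genes), where 26.7% of all genes tested were called lower and 56.2% in either direction. A count of 3 in 9 is near the share of all genes called lower. Idh2, the NADP-dependent mitochondrial isocitrate dehydrogenase, which supplies NADPH to the matrix, had 73.4 and 78.5 CPM in the Ldha line with GFP and 51.0 and 52.4 with GFP and IL-1β. In the Nampt line it went from 78.9 and 77.4 to 50.1 and 48.4 CPM, and in the Nfkbiz line from 70.9 and 66.8 to 49.1 and 50.2. All 6 libraries with IL-1β lay below all 6 without, and the log2 fold change was -0.52 ± 0.04 (SE, adjusted p = 2.63e-10), with -0.53, -0.61 and -0.45 in the Ldha, Nampt and Nfkbiz lines fitted alone, each past the test (adjusted p = 0.00122, 2.64e-05 and 0.00255, edgeR).

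Suclg2, the subunit that makes succinyl-CoA synthetase GTP-forming, had 30.2, 30.8, 31.4, 30.3, 31.8 and 32.1 CPM in the 6 GFP libraries and 22.9, 25.3, 21.1, 18.1, 24.9 and 23.9 CPM in the 6 with IL-1β, in the order Ldha, Nampt and Nfkbiz line. These groups did not overlap either, and the log2 fold change was -0.41 ± 0.07 (adjusted p = 4.01e-05, edgeR). The Suclg2 transcript matches the processed pseudogene Gm15163 over 1302 bases at 98.9% identity, and reads that fit both would not be counted for Suclg2. Gm15163 itself had 2 to 38 counts in a library, at most 6.92% of those of Suclg2. Fh1, fumarase, had 40.6, 40.0, 37.1, 42.1, 41.0 and 38.9 CPM with GFP and 33.6, 33.6, 30.6, 30.4, 32.3 and 33.9 with GFP and IL-1β. Its groups were again apart, with a log2 fold change of -0.25 ± 0.05 (adjusted p = 6.98e-05, edgeR). Groups that lay apart downwards were found for 10.4% of all genes over these 12 libraries. Within a line, Suclg2 passed the test in the Ldha line (-0.31 ± 0.10, adjusted p = 0.0499) and the Nampt line (-0.59 ± 0.12, adjusted p = 0.00301) and Fh1 in the Nampt line (-0.31 ± 0.09, adjusted p = 0.0157). Thus 2, 3 and 1 of the 9 genes were called in the Ldha, Nampt and Nfkbiz lines by edgeR, where 13.3%, 17.3% and 11.7% of all genes were called lower. No gene of the 9 had an IL-1β response that differed between 1 line and the mean of the other lines (edgeR, adjusted p of 0.21 or more for each, the differences of Suclg2 being 0.16 ± 0.15 for the Ldha, -0.23 ± 0.15 for the Nampt and 0.07 ± 0.15 for the Nfkbiz line), with 0.324%, 1.25% and 4.93% of all genes called.

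The other 6 genes had estimated log2 differences with IL-1β between -0.07 and 0.04. For Cs this was 0.04 ± 0.03. For the catalytic and a regulatory subunit of the NAD-dependent isocitrate dehydrogenase it was -0.03 ± 0.06 (Idh3a) and -0.00 ± 0.04 (Idh3b). For Ogdh, the decarboxylating subunit of the 2-oxoglutarate dehydrogenase complex, it was 0.00 ± 0.05, for Sucla2, the ATP-forming counterpart of Suclg2, -0.07 ± 0.06, and for Mdh2 -0.02 ± 0.04. Pooled over the 3 lines, their GFP and IL-1β libraries overlapped, and none of the 6 passed within a line. Within lines, Ogdh fell from 161.4 and 148.2 to 139.1 and 141.5 CPM (Ldha) and from 133.2 and 131.2 to 118.3 and 122.4 (Nampt). In the Nfkbiz line it rose from 136.7 and 159.9 to 162.2 and 165.5. There Cs also lay wholly higher and Sucla2 wholly lower with IL-1β, where 33.0% and 34.6% of all genes lay apart in these directions. Sums of cell type markers in the same 12 libraries, pooled over lines, were apart for the chondrocyte and muscle markers and overlapped for the others. With the Nfkbiz line taken apart from the Ldha and Nampt lines, myeloid and adipocyte sums were wholly higher with IL-1β in both parts. Fibroblast sums were wholly lower, at 4906 to 5943 and 3661 to 4395 CPM in the Ldha and Nampt lines and 1004 to 1205 and 742 to 768 in the Nfkbiz line. Endothelial sums were apart, upwards, only in the Ldha and Nampt lines, and epithelial sums, downwards, only in the Nfkbiz line. The 7 chondrocyte markers summed to 63145 to 79930 CPM with GFP and to 23118 to 27941 with GFP and IL-1β, the 6 muscle markers to 75.3 to 110 and 11.4 to 50.4, the 5 myeloid markers to 12.6 to 23.1 and 22.5 to 49.6, and the 3 adipocyte markers to 10.5 to 15.6 and 15.3 to 65.2. The sums were 1004 to 5943 and 742 to 4395 CPM for the 5 fibroblast, 2.04 to 2.90 and 2.12 to 5.66 for the 3 endothelial and 1.24 to 4.33 and 0.605 to 3.14 for the 5 epithelial markers. The part of these shifts in the values of the 9 genes was not tested.

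The sequences before the start sites of the 3 genes that fell together and of Cs, which did not pass, are shown so that they can be compared. They were read from RefSeq's promoter table (GRCm38.p6), which held 8 of the 9 genes and not Idh3a, run 5′ to 3′ on the gene's strand, and end at the base before the transcript start, except that the Idh2 run stops 42 bases short, where GENCODE starts the gene. Capitals mark GC boxes (GGGCGG on either strand), and adjoining GC boxes merge.
Idh2, chr7:80115393-80115600, minus strand, 208 bases: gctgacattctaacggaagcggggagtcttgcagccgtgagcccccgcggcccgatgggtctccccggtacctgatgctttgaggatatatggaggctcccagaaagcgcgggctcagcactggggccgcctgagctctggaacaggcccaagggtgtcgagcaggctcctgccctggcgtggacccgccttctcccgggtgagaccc
Suclg2, chr6:95718847-95719096, minus strand, 250 bases: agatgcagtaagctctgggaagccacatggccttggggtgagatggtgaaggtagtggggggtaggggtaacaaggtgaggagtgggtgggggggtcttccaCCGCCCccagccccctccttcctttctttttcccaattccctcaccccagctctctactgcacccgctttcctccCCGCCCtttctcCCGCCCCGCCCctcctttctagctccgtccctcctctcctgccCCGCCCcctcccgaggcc
Fh1, chr1:175625636-175625885, minus strand, 250 bases: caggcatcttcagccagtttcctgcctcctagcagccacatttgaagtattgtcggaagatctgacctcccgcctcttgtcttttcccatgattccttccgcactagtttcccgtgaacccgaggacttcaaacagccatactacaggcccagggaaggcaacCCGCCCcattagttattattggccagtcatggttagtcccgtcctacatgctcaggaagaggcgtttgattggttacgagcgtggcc
Cs, chr10:128337477-128337726, plus strand, 250 bases: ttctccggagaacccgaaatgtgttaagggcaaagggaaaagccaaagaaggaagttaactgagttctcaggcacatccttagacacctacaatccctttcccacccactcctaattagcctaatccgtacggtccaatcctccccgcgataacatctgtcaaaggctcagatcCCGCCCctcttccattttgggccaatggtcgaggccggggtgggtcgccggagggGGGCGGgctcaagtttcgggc

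Within the full 250 bases, a GC box was present before 7 of the 8 genes and before 32.7% of the 32851 start sites in the table. Suclg2 had 5 matches, Idh2 and Cs 2 each, and Idh3b was the gene without one. A CCAAT box (CCAAT, either strand) stood before 6 of the 8 and before 33.8% of all start sites. The estrogen-related receptor half-site AAGGTCA, the ETS motif CCGGAAG and the E-box CACGTG were found before none of the 8 and before 4.08%, 6.91% and 6.02% of all start sites, and the motif of nuclear respiratory factor 1 before Sucla2 alone and before 3.74%. The NF-κB motif was found before none of the 8 and before 3.9% of all start sites. All motifs were searched on both strands, and overlapping matches were each counted. The RefSeq start lay 27467 bases inside the GENCODE gene for Sucla2, 169 for Mdh2, 96 for Idh3b, 42 for Idh2 and 26 for Ogdh. The Sucla2 window thus lies within the gene, and the others of these lie partly within it. G and C made up 46.8% (Idh3b) to 67.2% (Idh2) of the 8 windows, beside a median of 52.4% over all start sites.

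Without IL-1β, Cre virus changed 1 of the 9 genes on average over the lines, where 21.0% of all genes were called and 12.1% called higher. This was Idh2, which was higher by 0.22 ± 0.04 on the log2 scale (adjusted p = 0.000222, edgeR). It stood at 90.7 and 89.1 CPM with Cre in the Ldha line and at 99.1 and 100.7 in the Nampt line, above each GFP library of those lines (73.4 to 78.9 CPM), as 10.1% of all genes and, of the 9, Cs also were, but at 69.1 and 72.7 CPM in the Nfkbiz line, where the GFP libraries had 70.9 and 66.8. Fitted alone and without the library set, the Nampt line passed the test (0.35 ± 0.06, adjusted p = 0.00273, edgeR). In these fits it was the only line with a gene called (1 of 9, against 8.30% of all genes called higher). Idh2 had values of 0.24 ± 0.08 (adjusted p = 0.161, edgeR) in the Ldha line and 0.04 ± 0.09 in the Nfkbiz line. In those 2 lines none of the 9 was called by edgeR, where 5.52% and 0.260% of all genes were. Over all genes, 2821 and 910 had an unadjusted p of 0.05 or less there. With the library set in the fit, 1 of the 9 was called in the Ldha line. The log2 differences of the other 8 genes averaged over the lines lay between -0.03 (Fh1) and 0.07 (Mdh2).

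Under IL-1β, Cre virus left 7 of the 9 genes higher than GFP virus on average over the 3 lines and none lower, where 26.3% of all genes were called higher and 30.7% lower. These were Idh2 (0.61 ± 0.04, adjusted p = 2.21e-11), Mdh2 (0.32 ± 0.04, adjusted p = 1.22e-07), Idh3a (0.23 ± 0.06, adjusted p = 0.00405), Suclg2 (0.22 ± 0.07, adjusted p = 0.0129), Ogdh (0.21 ± 0.05, adjusted p = 0.000846), Cs (0.19 ± 0.03, adjusted p = 6.17e-05) and Idh3b (0.13 ± 0.04, adjusted p = 0.00774), all by edgeR. Suclg2 missed the threshold when any 1 of 4 libraries was left out (Ldha GFP with IL-1β 1, Nampt Cre with IL-1β 1, Nfkbiz Cre with IL-1β 1 or Nampt GFP with IL-1β 2), with adjusted p of 0.0507 to 0.0658 by edgeR. Sucla2 had a difference of 0.06 ± 0.06 and Fh1 one of -0.11 ± 0.05 (adjusted p = 0.0508, edgeR). The median over the 9 genes was 0.21, beside -0.03 over all genes. The comparison shares its GFP libraries with IL-1β with the IL-1β comparison above, so that the direction of Idh2 and Suclg2 in the pair of comparisons is not independent.

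By line, the values of Mdh2 and Cs were as follows. Mdh2, which makes oxaloacetate and NADH, had 185.9 and 186.8 CPM with GFP and IL-1β in the Ldha line and 235.3 and 241.4 with Cre and IL-1β. In the Nampt line it went from 170.2 and 181.5 to 257.5 and 261.9 CPM, whereas the Nfkbiz line had 197.6 and 204.5 with GFP and 204.8 and 211.3 with Cre. The log2 fold changes were 0.39 ± 0.07 (adjusted p = 0.00213), 0.57 ± 0.07 (adjusted p = 9.69e-05) and 0.04 ± 0.09 (adjusted p = 0.824, edgeR). Cs had 210.9 and 206.4 CPM with GFP and 237.5 and 238.7 with Cre in the Ldha line, 184.6 and 194.0 against 254.4 and 244.9 in the Nampt line, and 180.0 and 183.1 against 176.3 and 183.2 in the Nfkbiz line. It passed the test in the first 2 (0.22 ± 0.07, adjusted p = 0.0285, and 0.40 ± 0.06, adjusted p = 0.000283) and had a difference of -0.03 ± 0.09 in the third (edgeR). The Cs call passed in 5 of 11 alternatives in the Ldha line and in 11 of 11 in the Nampt line.

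Idh2 was the one gene of the 9 called in each line. Its CPM with Cre and IL-1β were 89.3 and 75.6 in the Ldha line, 85.5 and 85.0 in the Nampt line and 64.1 and 62.6 in the Nfkbiz line, all above the 48.4 to 52.4 of the GFP libraries with IL-1β. The log2 fold changes were 0.71 ± 0.09, 0.80 ± 0.06 and 0.34 ± 0.09 (adjusted p = 0.000165, 1.98e-06 and 0.0213, edgeR). In the Nampt line Ogdh rose from 118.3 and 122.4 to 158.4 and 160.0 CPM (0.41 ± 0.06, adjusted p = 0.000205), Idh3a from 36.3 and 36.7 to 46.3 and 46.8 (0.35 ± 0.09, adjusted p = 0.00678), Idh3b from 67.9 and 74.1 to 88.6 and 84.3 (0.29 ± 0.08, adjusted p = 0.01) and Suclg2 from 21.1 and 18.1 to 26.8 and 21.9 (0.31 ± 0.12, adjusted p = 0.0495), all by edgeR. The Suclg2 call passed in 4 of 11 alternatives. Idh3b shares 5 of its 3422 exon bases with Nop56 on the opposite strand. By line, in fits without the library set, 3 of 9 genes were called higher in the Ldha line (16.9% of all genes), 7 in the Nampt line (25.0%) and 1 in the Nfkbiz line (8.16%). None was called lower in any line, where 17.0%, 23.4% and 9.20% of all genes were. With the library set in the fit, 6 of the 9 were called in the Ldha line. Over the 4 and 4 libraries of the Ldha and Nampt lines together, 6 genes lay wholly above their GFP libraries (Cs, Idh3a, Idh3b, Idh2, Ogdh and Mdh2), a pattern that 21.9% of all genes had, and over all 3 lines Idh2 and Mdh2 did, with 5.16% of all genes.

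**Figure D2:**
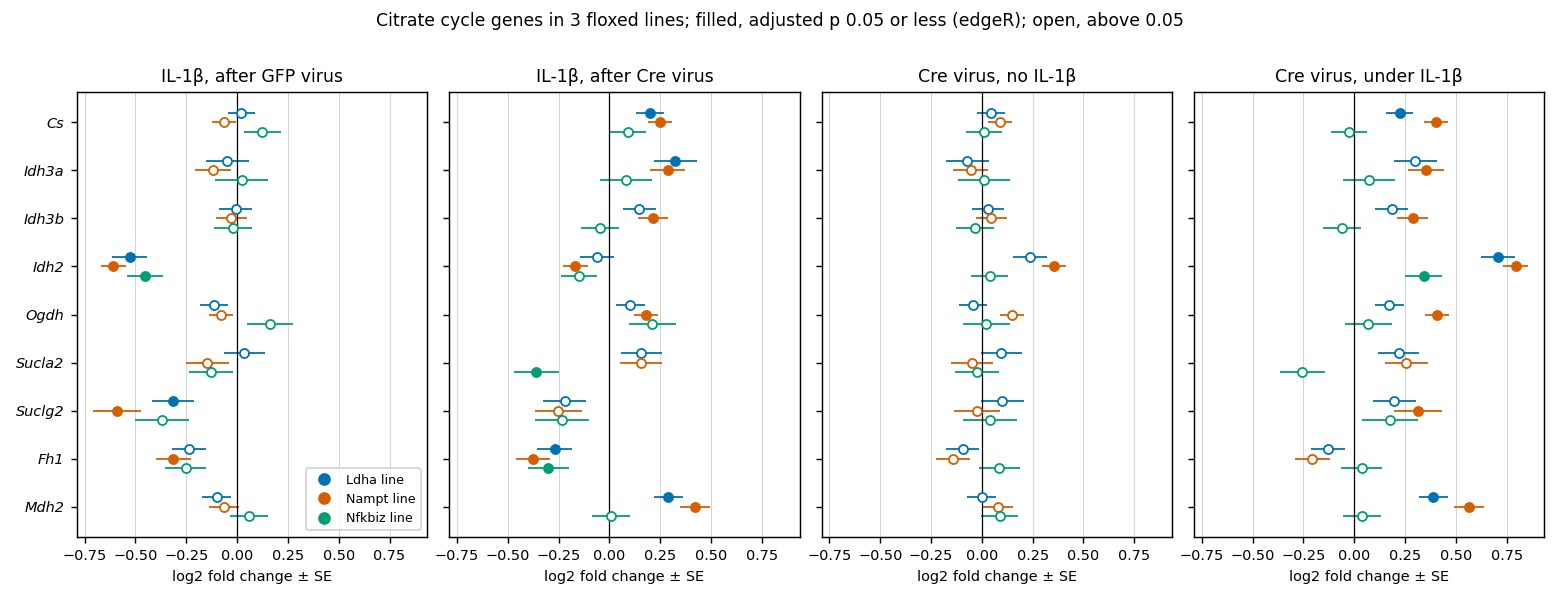
Log2 fold change with its SE for the 9 genes in each line, in 4 comparisons that share libraries; filled points had an adjusted p of 0.05 or less by edgeR. The right-hand panel shows the Cre effect under IL-1β, with Idh2 at 0.71, 0.80 and 0.34 and the Nfkbiz points of Mdh2, Cs and Idh3b near 0; the second panel, a comparison added after the values were seen, shows IL-1β after Cre virus.

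Markers of the cells moved with the same libraries. The 7 chondrocyte markers summed to 23118 to 24042 CPM with GFP and IL-1β in the Ldha and Nampt lines and to 12555 to 14313 with Cre and IL-1β, while in the Nfkbiz line the sums were 25919 to 27941 and 31288 to 33733. The 5 epithelial markers (Krt5, Krt14, Krt8, Krt18 and Epcam) summed to 2.35 to 3.14 CPM with GFP and IL-1β, to 18.4 to 42.6 with Cre alone and to 85.3 to 132 with Cre and IL-1β in the Ldha and Nampt lines, and in the Nfkbiz line to at most 1.93 in any group. The 3 endothelial markers went from 3.81 to 5.66 CPM to between 15.6 and 24.7 in the former lines, and to between 3.91 and 4.40, from 2.12 to 2.33, in the latter. The 5 fibroblast markers summed to 3661 to 4395 CPM with GFP and IL-1β and to 2311 to 2779 with Cre and IL-1β in the Ldha and Nampt lines, and to 742 to 768 and 783 to 884 CPM in the Nfkbiz line. The 5 myeloid markers had sums of 22.5 to 30.2 and 18.5 to 24.2 CPM in the Ldha and Nampt lines with GFP and IL-1β and with Cre and IL-1β, the 6 muscle markers 30.3 to 50.4 and 22.6 to 42.8, and the 3 adipocyte markers 15.3 to 22.0 and 5.63 to 11.4. In the Nfkbiz line these sums were 46.8 to 49.6 and 51.2 to 54.2, 11.4 to 13.5 and 18.7 to 20.6, and 64.9 to 65.2 and 15.5 to 22.9 CPM. Krt14 was at 0 in 16 of the 32 libraries, and none of the chondrocyte, fibroblast or myeloid markers was at 0 in any. The part of these shifts in the values of the 9 genes was not tested. In such bulk libraries fewer cells of a type and less RNA per cell cannot be told apart.

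Whether the lines differed was tested directly, on the Cre effect averaged over both IL-1β states. In the Nampt line it was larger than the mean of the other lines for Idh2, Ogdh (passing in 12 of 31 alternatives), Mdh2 and Cs, by 0.17 to 0.23 on the log2 scale (4 of 9 genes, against 11.6% of all genes called higher). In the Nfkbiz line it was smaller for Idh2, Sucla2, Cs, Mdh2 and Idh3b and larger for Fh1 (6 of 9 genes, against 34.4% of all genes called in either direction), and the differences of Idh3a, Ogdh and Suclg2 did not pass (-0.07 ± 0.10, -0.11 ± 0.07 and -0.02 ± 0.11, adjusted p = 0.598, 0.26 and 0.897). The Idh2 difference for that line was -0.32 ± 0.06 (adjusted p = 0.00029, edgeR). For the Ldha line no gene of the 9 was called (edgeR, against 5.07% of all genes, with 2612 of all genes at an unadjusted p of 0.05 or less).

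The Cre effect also depended on IL-1β. On average over the lines, the response to IL-1β was more positive after Cre than after GFP virus for Idh2, Mdh2, Idh3a and Cs (4 of 9 genes, against 15.3% of all genes). Of 31 alternatives, Idh2 passed in 31, Mdh2 in 30, Idh3a in 19 and Cs in 9 (highest adjusted p of Cs 0.366). Idh2, which stepped down with IL-1β after GFP virus, differed by 0.38 ± 0.06 (adjusted p = 1.82e-05) and Mdh2 by 0.25 ± 0.05 (adjusted p = 0.000587, edgeR). In the Nampt line 5 of the 9 genes passed this test, against 12.0% of all genes, and in the Ldha line 2, against 5.89%. In the Nfkbiz line none did by edgeR, against 5.19% of all genes in either direction, with 2679 genes at an unadjusted p of 0.05 or less. Of 15 alternatives, the Nampt calls passed in 15 (Idh2), 13 (Mdh2), 9 (Cs), 7 (Idh3a) and 4 (Ogdh). The Ldha calls passed in 8 (Idh2) and 5 (Mdh2).

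After Cre virus, a comparison added once the values had been seen, IL-1β moved the genes in both directions. Mdh2 (0.23 ± 0.04), Idh3a (0.22 ± 0.06), Cs (0.17 ± 0.03), Ogdh (0.16 ± 0.05) and Idh3b (0.10 ± 0.04) rose and Fh1 (-0.33 ± 0.05), Suclg2 (-0.24 ± 0.07) and Idh2 (-0.14 ± 0.04) fell on average over the lines, each with an adjusted p under 0.05 by edgeR, where 30.2% of all genes were called higher and 29.4% lower. The Idh3b call passed in 7 of 19 alternatives. Sucla2 had -0.03 ± 0.06. Fh1 was lowest of all with Cre and IL-1β in the Nampt line, at 26.9 and 25.9 CPM beside 36.3 and 35.2 with Cre alone, and was called lower in each line (-0.27, -0.38 and -0.30 in the Ldha, Nampt and Nfkbiz lines, adjusted p = 0.032, 0.00396 and 0.0493, edgeR), a call that passed in 7, 11 and 2 of 11 alternatives. Sucla2 fell in the Nfkbiz line, from 26.7 and 30.0 to 22.4 and 21.4 CPM (-0.36 ± 0.11, adjusted p = 0.0351, edgeR), and had estimates of 0.16 ± 0.10 in each of the other two. Counted by line, 4 of 9 genes were called in the Ldha line (35.9% of all genes), 7 in the Nampt line (43.9%) and 2 in the Nfkbiz line (22.1%). Of 11 alternatives, the Ldha calls other than Fh1 passed in 9 (Mdh2), 5 (Idh3a) and 4 (Cs). Those of the Nampt line passed in 11 (Mdh2), 10 (Cs), 8 (Idh3a) and 5 each (Idh3b, Idh2 and Ogdh). The Sucla2 call in the Nfkbiz line passed in 5.

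Subunits of the cycle outside the 9 genes were called in both directions. With IL-1β after GFP virus, 4 of 8 other subunits (Idh3g, Dlst, Dld, Suclg1, Sdha, Sdhb, Sdhc and Sdhd) were lower and 1 higher on average over the lines. Of all genes, 26.7% were called lower, 29.5% higher and 56.2% in either direction. The median log2 difference of the 8 was -0.13 beside 0.01 over all genes. Sdhb, the iron-sulfur subunit of succinate dehydrogenase, fell most of these 8 and the 9 genes, from a range of 95.6 to 123 CPM over 6 libraries (median 98.1) to one of 55.1 to 65.2 (median 60.9), a log2 difference of -0.74 ± 0.04 (adjusted p = 1.2e-12, edgeR). Suclg1, the subunit common to both succinyl-CoA synthetases, had -0.30 ± 0.05, Idh3g, the partner of Idh3a and Idh3b, -0.24 ± 0.05, and Dlst, the transferase subunit of the 2-oxoglutarate dehydrogenase complex, 0.18 ± 0.04 (adjusted p = 5.5e-05, 0.00059 and 0.00065, edgeR). Under IL-1β, Cre virus raised 3 of these 8 and lowered 2, near the 26.3% and 30.7% of all genes, with Sdhb at 0.47 ± 0.04, Suclg1 at 0.17 ± 0.05 and Dld, a subunit that the complex shares with pyruvate dehydrogenase, at -0.18 ± 0.05 (adjusted p = 4.7e-09, 0.0094 and 0.0027, edgeR). Their median was -0.0028. Without IL-1β Cre virus changed none of the 8 by edgeR, where 21.0% of all genes were called.

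**Figure D3:**
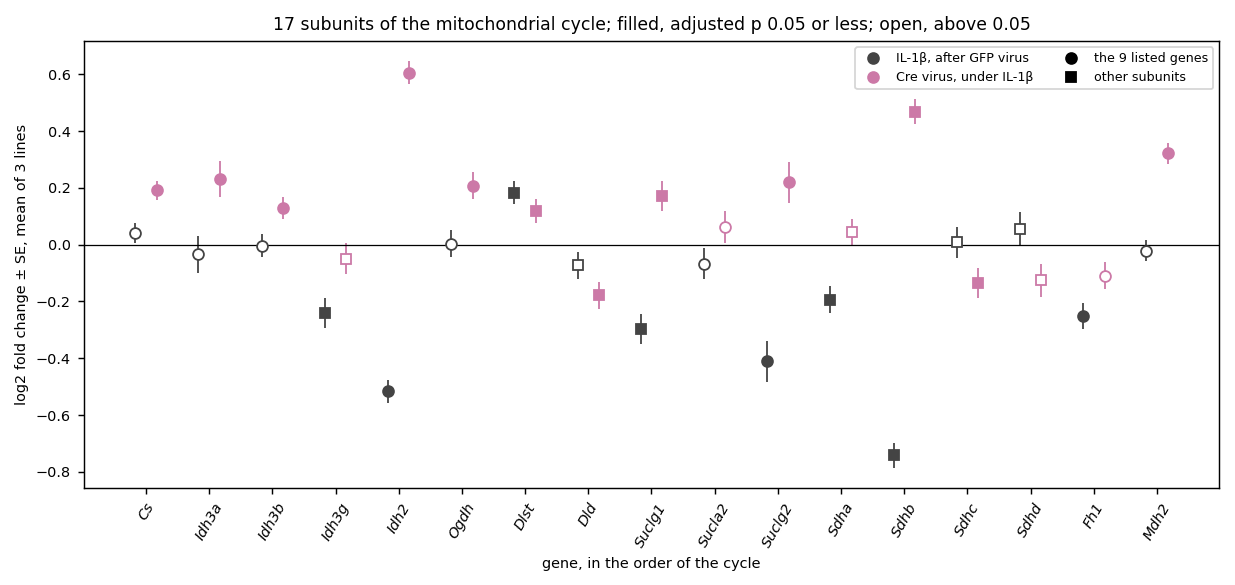
Log2 fold change with its SE, averaged over the 3 lines, for subunits in the order of the cycle (round points, the 9 genes described here; squares, the other 8). Idh2 and Sdhb were lowest with IL-1β after GFP virus (-0.52 and -0.74) and highest with Cre under IL-1β (0.61 and 0.47), 2 comparisons that share their GFP libraries with IL-1β.

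Genes at the step before citrate synthase were called with IL-1β about as often as all genes (56.2% in either direction, after GFP virus). Of 7 genes that bring pyruvate in, 3 were lower with IL-1β after GFP virus and 1 higher, where 26.7% of all genes were lower and 29.5% higher. These were Mpc2, a subunit of the mitochondrial pyruvate carrier (-0.62 ± 0.06), the pyruvate dehydrogenase subunits Pdhb (-0.37 ± 0.05) and Pdha1 (-0.31 ± 0.05), and pyruvate carboxylase, Pcx (0.44 ± 0.04; adjusted p = 7.4e-09, 3.7e-06, 5.4e-06 and 5.3e-09, edgeR). Under IL-1β, Cre virus raised Pdhb by 0.96 ± 0.05 (adjusted p = 6.5e-13, edgeR), from 25.8 to 35.1 CPM to between 67.2 and 101 in the Ldha and Nampt lines, while the Nfkbiz line had 34.9 to 35.5 with GFP and 31.9 to 40.9 with Cre. Of the 7 kinases and phosphatases of pyruvate dehydrogenase, 4 rose with IL-1β after GFP virus and 2 fell, beside the same 29.5% and 26.7% of all genes. Pdk1, a kinase that shuts the complex, rose by 0.62 ± 0.04 with IL-1β after GFP virus and fell with Cre under IL-1β, with a difference of -0.82 ± 0.04 (adjusted p = 8.6e-12 and 1.1e-13, edgeR). Pdk2, another, moved the opposite way in the same comparisons (-0.68 ± 0.10 and 0.79 ± 0.10, adjusted p = 5.6e-06 and 7.4e-07, edgeR).

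In wild-type cells, the inhibitor FX11 and IL-1β were compared in 4 ways, and edgeR called none of the 15461 genes tested in any of them, although 153 genes had an unadjusted p of 0.05 or less for IL-1β, 68 for FX11, 102 for FX11 under IL-1β and 861 for both agents against none. The other tools likewise called none of the 9 genes. In simulated counts with the spread of these 8 libraries, edgeR recovered 0 of 200 genes changed 2-fold. That spread includes the 2 libraries that go against their labels. The lack of calls thus cannot decide whether changes of that size were present. The standard error of the Idh2 differences was 0.35 on the log2 scale here, beside 0.04 in the mean over the flox lines. In set 1 Idh2 had 78.2 CPM untreated, 61.8 with FX11, 41.5 with IL-1β and 40.0 with both. In set 2 it had 94.1 CPM untreated, 59.9 in the library labelled FX11, 79.8 in the library labelled IL-1β and 61.1 with both. Idh2 was thus lower in each wild-type library with Mmp3 at 675 CPM or more than in the untreated libraries, and the same was seen in the set 1 library with FX11, which had Mmp3 at 1.2 CPM. Suclg2 had 31.2, 30.1, 23.0 and 27.2 CPM in set 1 and 32.0, 26.2, 34.7 and 39.1 in set 2, in the same order. Fh1 stayed between 37.3 and 44.5 CPM and Mdh2 between 169.5 and 195.3 over all 8 libraries. Without the 2 libraries that go against their labels, the log2 difference of Idh2 with IL-1β was -1.07 in place of -0.51, and that with FX11 under IL-1β 0.30 in place of -0.26, neither past the test (adjusted p = 0.503 and 1, edgeR).

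**Figure D4:**
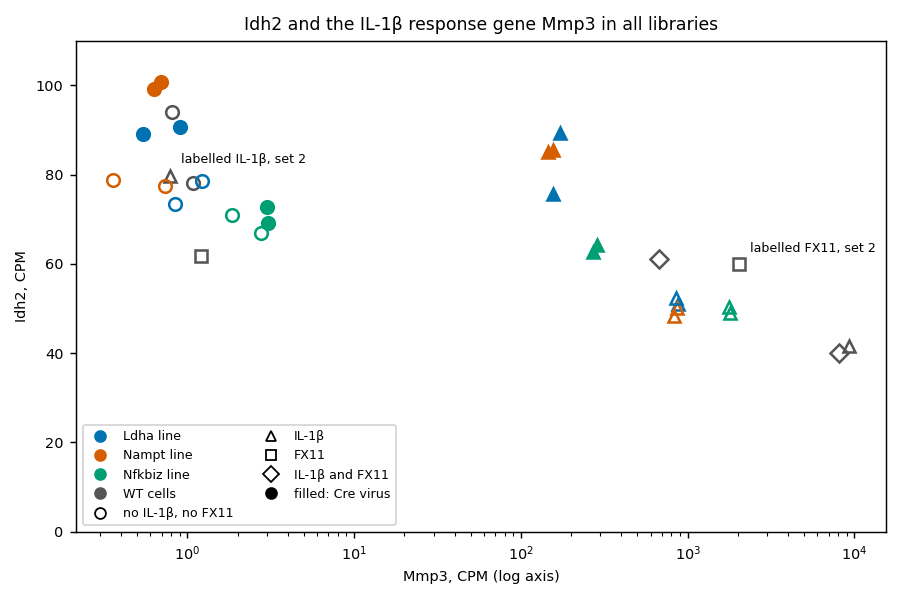
Idh2 against Mmp3 in the 32 libraries, both in CPM, Mmp3 on a log axis; colours give the line, shapes the treatment on the label and filled points Cre virus. In the 3 flox lines the libraries with GFP virus and IL-1β lie lowest, at 48.4 to 52.4 CPM of Idh2, and the 2 wild-type libraries that go against their labels are marked.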

How the data were processed

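RNA was depleted of ribosomal RNA (KAPA Ribo-Erase), and the authors aligned reads with STAR to the Ensembl release 76 assembly (GRCm38) and counted uniquely aligned reads per gene with featureCounts; the sources disagree on versions (the submitters' processing notes give STAR 2.0.4b and featureCounts 1.45). Whether counting used the strand is not given in the sources used here. The deposited counts are raw. The authors also deposited CPM, which divides by the library total, and RPKM, which also divides by gene length. The values given here are not those columns. CPM and RPKM were computed from the counts with TMM scaling over all 32 libraries and were used for description only.

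Counts were tested with edgeR 4.0.16 (R 4.3.3; TMM, quasi-likelihood test, two-sided, Benjamini-Hochberg), with 355 ribosomal RNA genes left out. Each line was fitted over its 8 libraries without the library set (genes above 1 CPM in at least 1 library). Means over lines were fitted over all 24 flox libraries with the library set as covariate (above 1 CPM in at least 5). SEs were derived from the F statistic. A list was described by its counts and median beside all genes. Alternatives used DESeq2 1.42.0 and limma 3.58.1, other filters and scaling, and libraries left out. The test was run on simulated counts with the spread of these libraries and 200 genes changed 2-fold. It recovered 157 of them in the design of the Ldha line, 200 in that of the 24 flox libraries and 0 in the wild-type design. False calls numbered 14, 16 and 0.

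The 9 genes and the lists of other genes were chosen with earlier results of these data known. All 9 were named, the deleted genes, Mmp3 and Acan were named as checks, and of each other list up to 4 genes with the smallest adjusted p. Sequences came from RefSeq, and gene overlaps and transcript matches (blastn, 95% identity or more over 100 bases or more) from GENCODE M21. Intervals cover only the spread between libraries. The wild-type cells were fitted over their own 8 libraries. Some genes of the lists are not reported here.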

Additional observations from a re-analysis of the deposited data

Results flagged for a closer look

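These results are given because a test of the difference between groups passed (edgeR, adjusted p of 0.05 or less), and their values are log2 differences. The response to IL-1β was more positive after Cre than after GFP virus in the Nampt line for Mdh2 (0.49), Idh2 (0.44), Idh3a (0.41), Cs (0.31) and Ogdh (0.26), in the Ldha line for Idh2 (0.47) and Mdh2 (0.39), and on average over the 3 lines for Idh2 (0.38), Idh3a (0.25), Mdh2 (0.25) and Cs (0.13). Of 15 alternatives, the Nampt calls passed in 15 (Idh2), 13 (Mdh2), 9 (Cs), 7 (Idh3a) and 4 (Ogdh). The Ldha calls passed in 8 (Idh2) and 5 (Mdh2). The Cre effect was larger in the Nampt line than in the mean of the other lines for Idh2 (0.23), Ogdh (0.21, passing in 12 of 31 alternatives), Mdh2 (0.18) and Cs (0.17). In the Nfkbiz line it was smaller for Idh2 (-0.32), Sucla2 (-0.25), Cs (-0.18), Mdh2 (-0.18) and Idh3b (-0.17) and larger for Fh1 (0.22). The Nampt and Nfkbiz differences share libraries, since each line is part of the mean that the other is set against. All Nfkbiz libraries were in set 2, and the fit with the library set as covariate takes up a shift between the sets only as far as the other lines show it.

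The wild-type libraries of set 2 labelled IL-1β and FX11 stood apart from their labels in Mmp3 (0.8 and 2033 CPM), and Lcn2, another IL-1β response gene, had 17.3 and 12643 CPM in them. No library was moved to another group.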

How the results depend on the processing

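Over 4302 refits of single genes, a reversal was counted only where the main fit had called the gene, and none was found. In settings that kept all libraries and refitted 270 values, a call was lost for 4 (RLE scaling) to 14 (no filter). With IL-1β after GFP virus, the mean log2 difference over lines ran over 19 alternatives from -0.56 to -0.50 for Idh2. It ran from -0.46 to -0.37 for Suclg2 and from -0.29 to -0.23 for Fh1. With Cre under IL-1β the ranges were 0.58 to 0.64 (Idh2), 0.18 to 0.21 (Cs), 0.31 to 0.33 (Mdh2) and 0.16 to 0.29 (Idh3a). Counts of the 9 genes called moved by more than 1.5 times as follows. In library set 2 alone, which has fewer libraries, the means over lines gave 4 in place of 7 for Cre under IL-1β, 0 in place of 1 for Cre alone, 1 in place of 4 for the interaction and 3 in place of 8 for IL-1β after Cre, and the line differences gave 0 in place of 4 (Nampt) and 1 in place of 6 (Nfkbiz). With all 24 flox libraries in one model, the Ldha line gave 5 in place of 3 for Cre under IL-1β and 1 in place of 0 for Cre alone, the Nfkbiz line 3 in place of 1 for IL-1β after GFP and 1 in place of 0 for the interaction, and the Nampt interaction 3 in place of 5. With DESeq2, IL-1β after GFP in the Ldha line gave 1 in place of 2, IL-1β after Cre in the Nfkbiz line 0 in place of 2 and the Nampt interaction 3 in place of 5. With limma's voom and quality weights, the tool the study names, these were 1 for the first and 0 for the second, and the Nfkbiz line gave 3 for IL-1β after GFP. With RLE scaling, IL-1β after Cre gave 1 in the Nfkbiz line and 2 in place of 4 in the Ldha line. With filterByExpr the Ldha line gave 0 in place of 2 for the interaction, 2 for IL-1β after Cre and 1 for IL-1β after GFP, and the Nfkbiz line 1 for IL-1β after Cre. With no filter the Ldha interaction gave 1, IL-1β after Cre 0 (Nfkbiz) and 4 in place of 7 (Nampt), IL-1β after GFP in the Nfkbiz line 2, and the Nfkbiz line difference 3.

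With the replicate block, Cre under IL-1β in the Ldha line gave 6, Cre alone 1 in the Ldha and 2 in the Nampt line, and IL-1β after Cre in the Nfkbiz line 0. The numbers come from the titles, which do not say that they mark a batch. In the Ldha and Nampt lines, number 1 is library set 1 and number 2 set 2, so there the block is the library set. The main fits of single lines did not include it. Same-numbered libraries of the Ldha and Nampt lines deviated together (lowest correlation 0.44 and 0.52 over genes) and those of the Nfkbiz and wild-type cells did not all (lowest -0.45 and -0.28).

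Leaving out 1 library at a time gave, for IL-1β after GFP, 1 to 2 (Ldha), 2 to 3 (Nampt), 1 to 1 (Nfkbiz) and 3 to 3 (mean), for Cre under IL-1β 2 to 3, 4 to 8, 0 to 2 and 6 to 8, for the interaction 0 to 1, 1 to 4, 0 to 0 and 2 to 5, for IL-1β after Cre 0 to 1, 3 to 4, 0 to 2 and 7 to 8, and for the line differences 1 to 4 (Nampt) and 3 to 6 (Nfkbiz). The 0 for Cre under IL-1β in the Nfkbiz line, which rests on Idh2, came without either of its GFP libraries with IL-1β, the 4 in the Nampt line without its first GFP library with IL-1β, and the 3 of the Nfkbiz difference without its first GFP library. An arm left with 1 library was assumed to vary like the others. The Suclg2 call with IL-1β in the Ldha line passed in 4 of 11 alternatives. With 2 libraries a condition, the smallest difference called within a line was -0.17 on the log2 scale, for Idh2 with IL-1β after Cre in the Nampt line. The cause of these shifts was not tested.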

Other observations

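Around the cycle, genes of the cytosol and of metabolite carriers moved in both directions with IL-1β after GFP virus (3 of 11 higher and 6 lower on average over the lines, beside 29.5% and 26.7% of all genes, median log2 difference -0.12). Citrate leaves the mitochondrion through Slc25a1 and is split by ATP-citrate lyase (Acly), and both rose (0.34 ± 0.04 and 0.31 ± 0.04, adjusted p = 5.1e-08 and 2e-07), while the cytosolic isocitrate dehydrogenase Idh1 and aspartate aminotransferase Got1 fell (-0.48 ± 0.06 and -0.45 ± 0.05, adjusted p = 1.1e-07 and 2.7e-08, edgeR). Under IL-1β, Cre virus lowered 7 of the 11 and raised 2, where 30.7% and 26.3% of all genes were, with Idh1 at -0.68 ± 0.06, malic enzyme Me1 at -0.36 ± 0.04, and the aspartate-glutamate carrier Slc25a13 and the dicarboxylate carrier Slc25a10 at 0.78 ± 0.07 and 0.60 ± 0.08 (adjusted p = 1.1e-09, 1.2e-07, 1.6e-09 and 9.8e-07, edgeR). Idh1 thus moved down in the comparison in which its mitochondrial counterpart Idh2 moved up.

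Of 13 tested genes that feed or drain the cycle (Acod1 was below the filter of the mean over lines), 9 fell and 3 rose with IL-1β after GFP virus, where 26.7% and 29.5% of all genes did, with a median of -0.41. The log2 difference was -0.85 ± 0.06 for the propionyl-CoA carboxylase subunit Pccb, -0.83 ± 0.04 for the mitochondrial phosphoenolpyruvate carboxykinase Pck2, -0.94 ± 0.08 for the GABA transaminase Abat and 0.72 ± 0.04 for malic enzyme Me2 (adjusted p = 1.4e-11, 5.9e-14, 4.1e-10 and 2.3e-12, edgeR). Pck2 fell further with Cre under IL-1β (-0.84 ± 0.04, adjusted p = 1.1e-13, edgeR), to 49.5 to 72.9 CPM in the Ldha and Nampt lines from 136 to 170, while the Nfkbiz line had 132 to 135 with GFP and 143 to 154 with Cre. In that comparison 4 of the 13 genes rose and 5 fell, where 26.3% and 30.7% of all genes did. Acod1, which makes itaconate from a cycle intermediate and is named after its values were seen, was at 0 CPM in all 12 flox libraries without IL-1β and at 0 to 0.303 CPM with GFP and IL-1β. It had 3.74 to 7.34 CPM with Cre and IL-1β in the Ldha and Nampt lines (adjusted p = 0.00017 and 2e-05 against GFP and IL-1β, edgeR). Of 9 regulators of mitochondrial biogenesis, 2 rose with IL-1β after GFP virus (Ppargc1b, 0.73 ± 0.18, and Gabpa, 0.23 ± 0.06, adjusted p = 0.0011 and 0.0015, edgeR) and 7 did not pass, where 29.5% of all genes were called higher and 56.2% in either direction. With Cre under IL-1β all 9 passed, 3 higher and 6 lower, where 57.0% of all genes passed, among them the estrogen-related receptor gene Esrra (0.56 ± 0.07) and its coactivator gene Ppargc1a (-1.10 ± 0.15; adjusted p = 7.2e-07 and 1.3e-06, edgeR).

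Among 14407 other genes, those whose mean profile over the 12 flox conditions lay nearest to the mean profile of the 9 genes were Gnb2, Tulp3, Ncoa4, Mob2 and Ddb1, with root mean square differences of 0.0334 to 0.0543 on the log2 scale. The profile itself was shallow, with a standard deviation of 0.107, and Idh2 alone had one of 0.34.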
